A study of Saccharomyces cerevisiae with 18 samples.

Results

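The comparison described here set yeast cells carrying the I775E form of the transcription factor Yrr1 against cells carrying the YJM789 allele, both grown in YPD. It held 4 of the 18 RNA-Seq libraries of the series, libraries S5 and S6 of I775E and libraries S1 and S2 of the YJM789 allele, chosen by their labels and not by any measured value. Each library keeps its number from the labels (S1 to S18). All cells were of the laboratory strain S96 (MATa, lys5), a relative of the reference strain S288c, in which the coding region of YRR1 had been exchanged for a hygromycin-resistance gene. The alleles were carried on the plasmid pGS35 under the YRR1 promoter and terminator, and G418 in the medium kept the plasmid in the cells. I775E is the S96 allele in which 1 isoleucine codon was changed to a glutamate codon, and glutamate is a residue whose negative charge stands in for a phosphate. The YJM789 allele comes from a strain derived from a clinical isolate and has a threonine at that residue. The S96 and YJM789 alleles also differ at other residues, so the residue changed in I775E is not the only difference between I775E and the YJM789 allele. YPD is the rich glucose medium of yeast extract, peptone and dextrose. The YPD cultures were grown for 2.5 h after the division, as were those with 4NQO described next. The other 14 libraries were S96-allele cells in YPD, and cells with each of the 3 alleles in YPD with 0.25 µg/ml of the DNA-damaging drug 4NQO (4-nitroquinoline 1-oxide) for 2.5 h or in 3% glycerol for 10 h. Every pairing of allele and medium, 9 in all, had 2 libraries, and nothing in the labels says whether the 2 differ in more than the culture, so the p-values measure the spread between such libraries.

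Yrr1 is a zinc-cluster transcription factor of the pleiotropic drug resistance network. It acts on the multidrug transporter gene SNQ2, on the drug resistance gene SNG1 and on its own promoter. The drug 4NQO is a known substrate of the Snq2 pump. The comparison in YPD without drug asks how the cells differ before any challenge.

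The codon that was changed lies near the end of the YRR1 coding sequence (YOR162C, R64 assembly, chrXV:639560-641992, minus strand, 811 codons with the stop). The reference stretch of 63 bases around it is shown because it holds the codon that was changed, with the codon changed in I775E in capitals (chrXV:639638-639700, minus strand, read 5′ to 3′ along the gene). The I775E plasmid carries a glutamate codon there, and its sequence was not used here.
YRR1: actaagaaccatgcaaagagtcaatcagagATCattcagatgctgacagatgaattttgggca

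Total counts in genes were 2294807 and 2711267 for I775E (S5 and S6) and 1851373 and 1863963 for the YJM789 allele (S1 and S2), within the range of 1475372 to 2826771 over the 18 libraries. Levels are given as CPM, a gene's counts scaled to a common library total, which compares a gene between libraries but not one gene with another, because CPM is not corrected for gene length. A difference is a log2 fold change of I775E over the YJM789 allele with its standard error (SE), and it was called where the Benjamini-Hochberg adjusted p of the edgeR quasi-likelihood model of the 18 libraries was under 0.05. Of 5766 genes tested, 816 were called (14.2%), 428 higher in I775E (7.42%) and 388 lower (6.73%). A log2 fold change of at least 1 in size was reached by 209 of the higher genes (3.62%) and 88 of the lower ones (1.53%). The median log2 fold change over all genes tested was -0.0045. Leaving out 1 of the 4 libraries brought the calls to 485 without S1, 482 without S2, 473 without S5 and 521 without S6. In the same model the YJM789 allele differed from the S96 allele at 51 genes in YPD (0.884%). Values of the S96-allele libraries S3 and S4 are given beside the main differences.

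**Figure D1:**
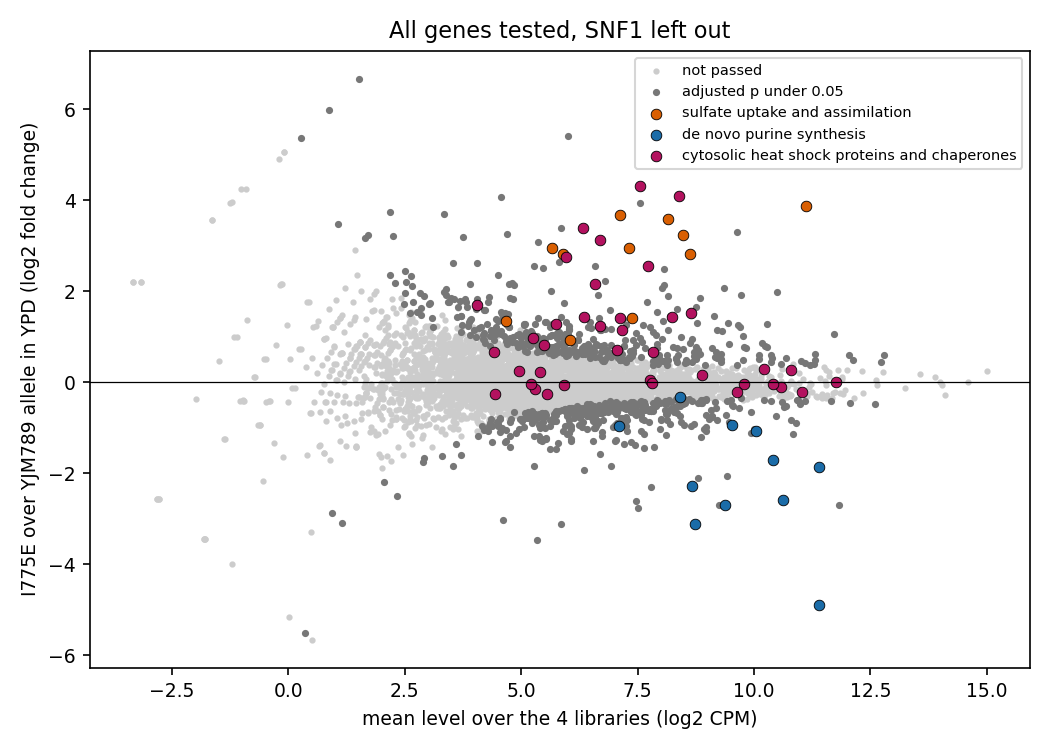
Log2 fold change of I775E over the YJM789 allele in YPD against the mean level of each gene over the 4 libraries (log2 CPM). Dark grey points passed the adjusted p threshold, and coloured points are the members of 3 gene lists: sulfate assimilation genes lay above 0, de novo purine genes below 0, and the heat shock list ran from -0.26 to 4.32, with 27 of its 38 members above 0.

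YRR1 itself was lower in I775E than in either of the other alleles. Its level was 41.4 and 49.9 CPM in the I775E libraries S5 and S6, 80.0 and 96.7 CPM in the YJM789-allele libraries S1 and S2 and 117 and 122 CPM in the S96-allele libraries S3 and S4. The groups did not overlap, and I775E had about 51.7% of the YJM789-allele level (log2 fold change -0.95, SE 0.19, adjusted p = 0.000529). YRR1 was also lower in I775E than in the S96 allele (log2 fold change -1.38, adjusted p = 1.05e-06), while the YJM789 and S96 alleles did not pass the test against each other (log2 fold change -0.43, adjusted p = 0.296). Since the only copy of YRR1 was on the plasmid, plasmid number and transcript per plasmid cannot be told apart. All reads were aligned to the S288c reference, from which the YJM789 allele of YRR1 differs. Whether this lowered the YRR1 counts of that allele was not tested.

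SNF1, which encodes the catalytic subunit of the AMP-activated protein kinase that yeast needs to grow on carbon sources other than glucose, was not detected in I775E. The SNF1 count was 0 in S5 and 0 in S6, against 244 and 207 in the YJM789-allele libraries and 231 and 297 in the S96-allele libraries. Against a floor of 3 counts over both I775E libraries together, the level of SNF1 was at least 206-fold lower in I775E than in the YJM789 allele. The loss was not limited to YPD: the 6 I775E libraries of the 3 media held at most 2 SNF1 counts each, and each of the 12 other libraries held between 179 and 297. SNF1 (YDR477W, chrIV:1412373-1414274) was the 1 gene with at most 3 counts in every I775E library and at least 20 in every other. Its neighbours were still counted in I775E, though the nearest on each side were called. YDR476C had 139 and 225 counts, against 226 and 186 in the YJM789-allele libraries (log2 fold change -0.64, adjusted p = 0.0208). SNM1 had 39 and 65 against 14 and 15 (log2 fold change 1.38, adjusted p = 0.0254). Without 1 of the 4 libraries these log2 fold changes ran from -0.91 to -0.38 and from 1.08 to 1.65. The next neighbours, JIP4 and PEX29, did not pass. The I775E libraries therefore differ from the others in another gene than YRR1, and what the allele does and what the missing SNF1 transcript does cannot be told apart in any difference given here.

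A few genes associated with Yrr1 were called in YPD, in both directions. Of the list of 15, which holds YRR1, 2 were higher in I775E (YLR179C and YPL088W, 13.3%), against 7.42% of all genes. Another 2 were lower (YRR1 and LAF1, 13.3%), against 6.73% of all genes, and 11 did not pass. These shares of all genes are the background for each list below in I775E over the YJM789 allele. The median log2 fold change of the 15 was -0.11. SNQ2, the drug pump gene most closely tied to 4NQO resistance, was at 347 and 388 CPM in I775E and 406 and 394 CPM with the YJM789 allele, and did not pass (log2 fold change -0.12, SE 0.14, adjusted p = 0.635). The 95% interval of that difference ran from -0.41 to 0.17 on the log2 scale. SNG1, another gene under Yrr1, was at 44.5 and 47.1 against 48.7 and 50.3 CPM (log2 fold change -0.11, SE 0.19, adjusted p = 0.78). The ABC transporter gene YOR1 was at 144 and 159 against 198 and 166 CPM (log2 fold change -0.26, SE 0.14, adjusted p = 0.242). FLR1, a fluconazole resistance transporter gene, had a log2 fold change of 0.22, SE 0.16, adjusted p = 0.42.

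YLR179C, of unknown function, stood at 889.5 and 845 CPM in I775E, 399 and 396 CPM with the YJM789 allele and 391 and 395 CPM with the S96 allele. It was thus about 2-fold higher in I775E, with nearly equal levels in the other alleles (log2 fold change 1.13, SE 0.12, adjusted p = 2.54e-08). YPL088W, a putative aryl-alcohol dehydrogenase gene, was at 53.5 and 42.3 against 20.9 and 18.1 CPM (log2 fold change 1.29, SE 0.26, adjusted p = 0.000618). LAF1 (YMR102C) was lower, at 25.8 and 30.5 against 49.3 and 63.3 CPM (log2 fold change -1.0, SE 0.23, adjusted p = 0.0033), but its call was lost without S2 (adjusted p = 0.0903) and without S5 (adjusted p = 0.0616). Among 28 other efflux pump genes and their regulators, 1 was higher (3.57%, against 7.42% of all genes) and 3 were lower (10.7%, against 6.73%). AQR1, which exports amino acids and short-chain acids, was at 121 and 129.8 against 327 and 343 CPM (log2 fold change -1.42, SE 0.27, adjusted p = 0.000286). The polyamine exporter genes TPO1 and TPO2 moved apart, TPO1 by a log2 fold change of -1.06 and TPO2 by 1.22 (adjusted p = 1.25e-05 and 5.06e-06). PDR5, the main pump of the network, did not pass (log2 fold change 0.30, SE 0.12, adjusted p = 0.0991).

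**Figure D2:**
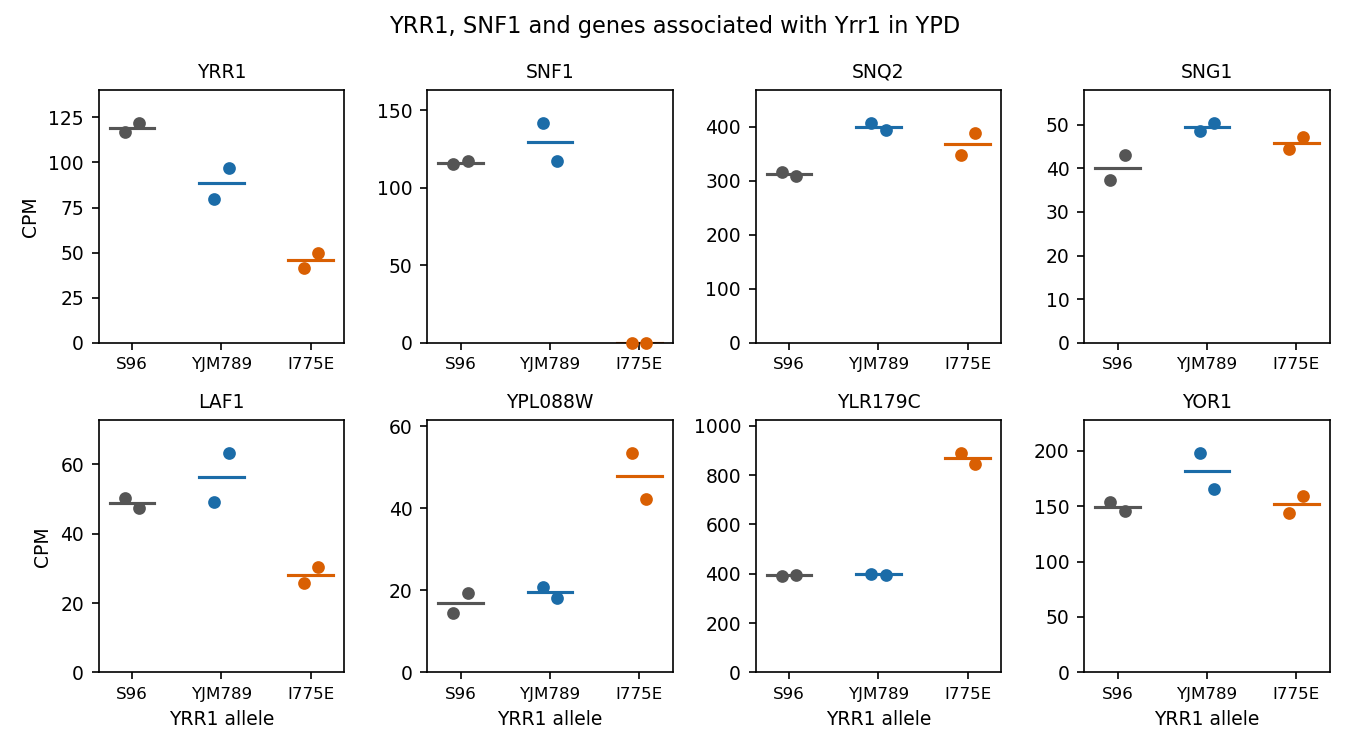
Levels in CPM of YRR1, SNF1 and 6 genes associated with Yrr1 in the 6 YPD libraries, each point a library and each bar the mean of the 2 libraries of an allele. SNF1 lies at 0 in both I775E libraries, YRR1 and LAF1 are lowest in I775E, YLR179C and YPL088W are highest in I775E, and SNQ2, SNG1 and YOR1 of I775E lie close to those of the YJM789 allele.

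Genes of sulfate assimilation were higher as a group. In this pathway sulfate is taken up, activated, reduced to sulfide and built into homocysteine, from which methionine is made, and Met4 with the DNA-binding factors Cbf1, Met31 and Met32 turns its genes on. All 11 tested members of the list were higher in I775E, against 7.42% of all genes, with a median log2 fold change of 2.95, and at least 10 of the 11 were called without any 1 of the 4 libraries. Their promoters are shown by 2 of the 4 members among the largest differences, those in which a Cbf1 word (CACGTG) or a Met31/Met32 word (CTGTGG) was found on either strand. Each stretch runs from 250 bases before the start codon to 50 after its first base in R64, with the words in capitals.
MET14 (chrXI:439336-439635, minus strand): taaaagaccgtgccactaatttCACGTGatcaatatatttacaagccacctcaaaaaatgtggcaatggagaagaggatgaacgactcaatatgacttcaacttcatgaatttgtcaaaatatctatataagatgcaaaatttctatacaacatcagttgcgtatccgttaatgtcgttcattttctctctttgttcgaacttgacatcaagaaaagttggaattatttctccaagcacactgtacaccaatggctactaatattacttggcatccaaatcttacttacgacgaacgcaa
MET10 (chrVI:213062-213361, plus strand): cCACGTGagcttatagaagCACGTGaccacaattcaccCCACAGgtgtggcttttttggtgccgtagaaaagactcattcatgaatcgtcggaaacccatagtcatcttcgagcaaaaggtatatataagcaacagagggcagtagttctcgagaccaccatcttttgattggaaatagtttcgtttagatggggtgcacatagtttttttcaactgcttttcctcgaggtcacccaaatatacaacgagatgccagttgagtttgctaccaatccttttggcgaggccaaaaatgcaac
The Cbf1 word was found in 5 of the 11 promoters of the list (45.5%) against 2.92% of 6001 promoters in the genome, and the Met31/Met32 word in 1 of 11 (9.09%) against 6.85%. The Cbf1 word was also in 8 of 29 promoters of the phosphate list described below (27.6%). The promoters of MET17 and MET3 held neither word in this window.

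The uptake step was represented by SUL2, a sulfate permease gene, at 276 and 289 CPM in I775E and 34.8 and 37.9 CPM with the YJM789 allele (log2 fold change 2.96, SE 0.19, adjusted p = 4.95e-13). MET3, whose product ATP sulfurylase activates sulfate, was at 524 and 534 against 45.2 and 42.4 CPM, with 40.8 and 39.1 CPM in the S96 allele. MET14, for the kinase of the next step, was at 267 and 248 against 13.9 and 26 CPM. These log2 fold changes were 3.59 for MET3 and 3.68 for MET14 (adjusted p = 3.96e-16 and 2.22e-13). Of the reductase genes, MET16 (PAPS reductase) had a log2 fold change of 2.95, SE 0.31, adjusted p = 2.58e-08, MET10 and MET5 (the subunits of sulfite reductase) of 3.23 and 2.83, and MET1 (for its siroheme cofactor) of 2.81. MET17, which joins sulfide to O-acetylhomoserine, was at 3868 and 4404 CPM in I775E, 275 and 284 CPM with the YJM789 allele and 264 and 254 CPM with the S96 allele. Its level was about 14.8-fold higher in I775E (log2 fold change 3.89, SE 0.15, adjusted p = 7.09e-18), and it overlaps the neighbouring reading frame YLR302C by 12 bases.

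In the wider list of methionine synthesis, uptake and sulfur amino acids, 15 of 28 genes were higher and 1 was lower, with a median log2 fold change of 0.47. STR3, for the lyase that turns cystathionine into homocysteine, was among the largest positive differences, at 131 and 118 CPM in I775E against 0 and 5.65 CPM with the YJM789 allele and 5.48 and 4.74 CPM with the S96 allele (log2 fold change 5.42, SE 0.43, adjusted p = 4.3e-11). The size of the STR3 difference rested on single libraries: the count in S1 was 0, and the log2 fold change was 4.47 without S1 and, against S1 alone, has no upper bound. MHT1, which makes methionine from S-methylmethionine, was at 49 and 40.4 against 4.06 and 1.13 CPM (log2 fold change 4.08, SE 0.44, adjusted p = 3.02e-08), with a log2 fold change of 5.25 without S1 and 3.46 without S2. The methionine synthase gene MET6 was at 2077 and 2534 against 546 and 624 CPM (log2 fold change 1.98, SE 0.14, adjusted p = 6.48e-12). Permease genes were higher as well: MUP1, for methionine, by a log2 fold change of 1.92, MMP1, for S-methylmethionine, by 2.23, and SAM3, for S-adenosylmethionine, by 1.90. The S-adenosylmethionine synthetase gene SAM1 did not pass (log2 fold change 0.41, SE 0.15, adjusted p = 0.0608), nor did SAH1, which recycles S-adenosylhomocysteine (log2 fold change -0.13, SE 0.13, adjusted p = 0.574). The transcript of the activator gene MET4 had a log2 fold change of -0.21, SE 0.24, adjusted p = 0.635 and did not pass.

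Genes of de novo purine synthesis were lower as a group. Its enzymes build inosine monophosphate from phosphoribosyl pyrophosphate, and Bas1 with Pho2 turns on the ADE genes when the pathway's late intermediates are present. Of 11 tested members, 10 were lower in I775E, against 6.73% of all genes, and none was higher. The median log2 fold change was -1.87, and 10 were called also without any 1 of the 4 libraries. Of the 5 ADE genes among the largest differences, 4 held a Bas1 word (TGACTC) on either strand, and the first 2 by size are shown with the word in capitals.
ADE17 (chrXIII:509231-509530, minus strand): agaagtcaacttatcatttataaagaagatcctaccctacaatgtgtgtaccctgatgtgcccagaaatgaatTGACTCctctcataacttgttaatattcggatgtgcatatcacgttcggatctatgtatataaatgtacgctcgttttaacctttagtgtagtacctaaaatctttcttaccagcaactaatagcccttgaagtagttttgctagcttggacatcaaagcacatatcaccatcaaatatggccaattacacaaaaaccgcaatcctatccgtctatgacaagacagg
ADE2 (chrXV:566142-566441, minus strand): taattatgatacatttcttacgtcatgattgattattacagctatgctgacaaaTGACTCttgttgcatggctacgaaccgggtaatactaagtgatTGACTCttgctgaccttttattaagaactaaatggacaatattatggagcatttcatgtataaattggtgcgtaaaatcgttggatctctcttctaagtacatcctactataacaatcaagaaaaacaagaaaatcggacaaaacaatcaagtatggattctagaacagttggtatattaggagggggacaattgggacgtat
The Bas1 word was found in 8 of 11 promoters of the list (72.7%) and in 8 of 12 of the one-carbon and glycine list (66.7%), against 7.98% of all promoters. It was not limited to lists that were lower in I775E. Of the arginine and lysine list, which was higher, 12 of 26 promoters held it (46.2%), and of the sulfate list 3 of 11 (27.3%). In the list of other amino acid genes it was in 26 of 60 (43.3%).

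ADE17, 1 of 2 genes for the enzyme of the last pair of steps, fell furthest, from 4992 and 5475 CPM with the YJM789 allele to 194 and 160.3 CPM in I775E, while the S96-allele libraries held 3385 and 4505 CPM. This was about 29.5-fold lower (log2 fold change -4.89, SE 0.18, adjusted p = 2.54e-18). Its paralog ADE16 did not pass, at 311 and 295 against 343 and 409 CPM (log2 fold change -0.31, SE 0.13, adjusted p = 0.124). ADE2 (phosphoribosylaminoimidazole carboxylase) was at 103 and 74.8 against 691 and 833 CPM (log2 fold change -3.10, SE 0.18, adjusted p = 2.84e-14), ADE1 at 181 and 175 against 1087 and 1216 CPM (log2 fold change -2.69, SE 0.16, adjusted p = 1.07e-13), and ADE13 (adenylosuccinate lyase) at 484 and 421 against 2599.8 and 2838 CPM (log2 fold change -2.59, SE 0.14, adjusted p = 5.74e-15). ADE4, which catalyses the committed step, had a log2 fold change of -2.27, SE 0.16, adjusted p = 3.05e-12. ADE3, a trifunctional folate enzyme, was among those that fell least, and was at 683 and 685 against 1479.5 and 1391 CPM (log2 fold change -1.07, SE 0.13, adjusted p = 1.71e-07).

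Part of the genes that supply one-carbon units and glycine to the pathway were lower with it. Of 12 tested, 6 were lower and 1 was higher, and 5 were lower without any 1 of the 4 libraries. The higher one was DFR1, dihydrofolate reductase, whose adjusted p was 0.0949 without S2 and 0.0738 without S5. SHM2, the cytosolic serine hydroxymethyltransferase, was at 987 and 945 CPM in I775E and 6278 and 6290.3 CPM with the YJM789 allele (log2 fold change -2.70, SE 0.15, adjusted p = 2.51e-14). MTD1, a cytosolic methylenetetrahydrofolate dehydrogenase, was at 60.1 and 39.6 against 280.5 and 325 CPM (log2 fold change -2.61, SE 0.20, adjusted p = 3.83e-11). Of the glycine cleavage genes, GCV1 had a log2 fold change of -2.30, GCV2 of -2.09 and GCV3 of -1.02 (adjusted p = 3.36e-11, 3.69e-12 and 1.8e-05). The serine synthesis genes SER1 and SER3 were lower too, by log2 fold changes of -1.03 and -1.84. In GMP synthesis and salvage the members moved apart: IMD2, for inosine monophosphate dehydrogenase, was at 1077 and 1039 CPM in I775E and 249 and 249.9 CPM with the YJM789 allele (log2 fold change 2.08, SE 0.15, adjusted p = 4.16e-12), whereas the salvage gene HPT1 fell from 482 and 459.6 to 242 and 253 CPM (log2 fold change -0.93, SE 0.12, adjusted p = 1.97e-06) and the purine permease gene FCY2 had a log2 fold change of -0.73, SE 0.13, adjusted p = 0.000173. IMD2 has near-identical relatives among which reads could be split. Of 38 genes of ribonucleotide reductase and the DNA damage response, 1 was called, RAD16 with a log2 fold change of -0.81, and its adjusted p was 0.401 without S1, 0.199 without S5 and 0.152 without S6. RNR1, the large subunit of the reductase, had a log2 fold change of -0.14, SE 0.14, adjusted p = 0.547.

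**Figure D3:**
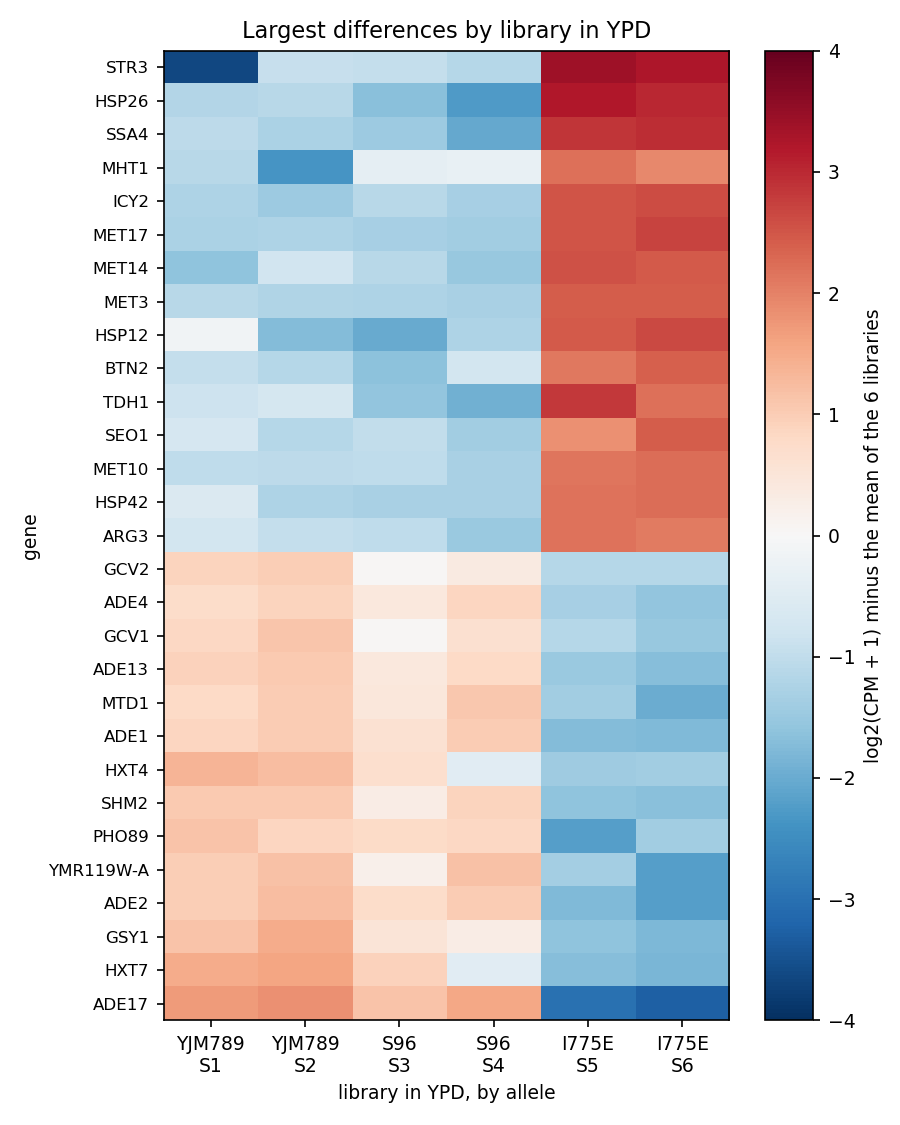
Levels of 29 genes with the largest differences (15 higher, 14 lower, without SNF1) in the 6 YPD libraries, as log2(CPM + 1) minus the mean of the gene over the 6. Both I775E columns have 1 colour and the 4 columns of the other alleles mostly the opposite colour, with S3 and S4 of the S96 allele nearer to 0 than the YJM789 allele for HXT4, HXT7, GCV1, GCV2 and GSY1.

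Heat shock proteins and chaperones of the cytosol were the third large group. They hold unfolded proteins or refold them, and Hsf1 and the stress factors Msn2 and Msn4 switch them on. Of 38 tested, 19 were higher in I775E and none was lower, with a median log2 fold change of 0.67, and 17 or 18 were called when 1 of the 4 libraries was left out. HSP26, a small heat shock protein, was at 377 and 336 CPM in I775E, 17.4 and 18.1 CPM with the YJM789 allele and 12 and 7.5 CPM with the S96 allele (log2 fold change 4.32, SE 0.27, adjusted p = 2.22e-13). SSA4, an inducible Hsp70, was at 613 and 645 against 40.0 and 33.9 CPM (log2 fold change 4.09, SE 0.21, adjusted p = 1.86e-15). HSP42, another small heat shock protein, was at 183 and 190.4 against 26.1 and 16.4 CPM (log2 fold change 3.13, SE 0.22, adjusted p = 3.81e-12), and BTN2, which gathers misfolded proteins, at 133 and 161 against 15.1 and 13 CPM (log2 fold change 3.39, SE 0.27, adjusted p = 6.67e-11). HSP82, an Hsp90, was at 372 and 352 against 37.1 and 85.4 CPM (log2 fold change 2.56, SE 0.21, adjusted p = 1.12e-10, and 3.31 without S2), and its reads may be shared with the close copy HSC82. The constitutive ribosome-bound chaperone genes SSB1 and SSB2 did not pass, with log2 fold changes of -0.22 and 0.01 (adjusted p = 0.267 and 0.982). Among 25 chaperone genes of mitochondria and the endoplasmic reticulum, 4 were higher and 1 was lower, and 2 were higher without S1. HSP78, the mitochondrial disaggregase, led them at 158 and 168 against 24.3 and 31.1 CPM (log2 fold change 2.55, SE 0.21, adjusted p = 1.22e-10).

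The promoters of SSA4 and HSP42, 2 of the 4 members of this list among the largest differences, held a stress response word (AGGGG) or a heat shock word (GAANNTTC), and are shown with these in capitals.
SSA4 (chrV:364339-364638, plus strand): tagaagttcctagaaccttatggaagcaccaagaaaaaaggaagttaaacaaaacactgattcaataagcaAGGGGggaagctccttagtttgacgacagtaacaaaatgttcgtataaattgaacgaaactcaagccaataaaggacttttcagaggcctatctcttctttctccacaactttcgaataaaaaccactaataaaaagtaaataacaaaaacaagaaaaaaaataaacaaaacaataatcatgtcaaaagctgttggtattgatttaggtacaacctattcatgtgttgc
HSP42 (chrIV:806371-806670, plus strand): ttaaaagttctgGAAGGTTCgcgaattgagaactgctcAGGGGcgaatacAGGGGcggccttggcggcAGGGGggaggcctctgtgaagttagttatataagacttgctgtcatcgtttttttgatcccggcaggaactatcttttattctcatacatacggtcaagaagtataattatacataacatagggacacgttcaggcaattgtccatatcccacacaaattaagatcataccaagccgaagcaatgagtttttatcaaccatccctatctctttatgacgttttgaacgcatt
The stress response word was found in 12 of the 38 promoters of the list (31.6%) against 21.6% of all promoters, and the heat shock word in 8 of 38 (21.1%) against 11.8%. Lists with more lower than higher members varied in these words, some above the heat shock list and some below it. The stress response word was in 23 of 46 respiratory chain promoters (50%) and 10 of 22 trehalose and glycogen promoters (45.5%). It was in 23 of 135 ribosomal protein promoters (17%) and 4 of 38 lipid synthesis promoters (10.5%). The heat shock word was in 30 of 135 ribosomal protein promoters (22.2%). It was in 4 of 46 respiratory chain promoters (8.7%) and 1 of 22 trehalose and glycogen promoters (4.55%). Promoters of HSP26 and BTN2 held neither word in this window.

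Targets of Msn2 and Msn4 outside that group did not all move the same way in I775E over the YJM789 allele. Of 39 tested, 14 were higher and 5 were lower, and these numbers were 7 and 3 without S1 and 8 and 4 without S5. HSP12, a membrane-bound stress protein, was at 98.9 and 113 against 15.6 and 4.52 CPM (log2 fold change 3.39, SE 0.37, adjusted p = 3.77e-08, and 4.55 without S1 and 2.78 without S2), and DDR2, a stress gene of unknown function, at 61.5 and 70.4 against 12.7 and 9.61 CPM (log2 fold change 2.56, SE 0.29, adjusted p = 8.84e-08). The secreted glycoprotein gene YGP1 had a log2 fold change of 1.26, SE 0.14, adjusted p = 6.1e-08. The hexokinase gene GLK1, on the other hand, was lower, at 414 and 344 against 591 and 646 CPM (log2 fold change -0.71, SE 0.14, adjusted p = 0.000479). Against the S96 allele the list was less mixed. In I775E over S96, 17 of the 39 were higher and 1 was lower, against 7.28% and 4.41% of all genes, with a median of 0.59. In the YJM789 allele over S96, 3 were higher (0.728% of all genes) and none was lower, with a median of 0.47.

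Some storage carbohydrate genes were lower. Of 22 tested trehalose and glycogen genes, 10 were lower and none was higher, with a median log2 fold change of -0.51 and 9 or 10 lower without any 1 of the 4 libraries. GSY1, a glycogen synthase, fell from 92.1 and 116 CPM to 12.9 and 11.1 CPM (log2 fold change -3.12, SE 0.24, adjusted p = 2.09e-11). The branching enzyme gene GLC3 had a log2 fold change of -1.34, SE 0.22, adjusted p = 3.52e-05, and the trehalose synthase subunit gene TSL1 was at 77.5 and 72.8 CPM in I775E, 179.7 and 184 CPM with the YJM789 allele and 83.7 and 59.6 CPM with the S96 allele (log2 fold change -1.28, SE 0.17, adjusted p = 1.62e-06). For TSL1 it was thus the YJM789-allele libraries that lay apart, with I775E within the range of the S96 libraries. In the test of the YJM789 allele over S96, 7 of the 22 were higher (0.728% of all genes) and none was lower, and in that of I775E over S96, 3 were higher (7.28% of all genes) and 3 lower (4.41%). GSY1 differed from the S96 allele as well, with 59.8 and 50.6 CPM there (log2 fold change of I775E over S96 -2.19, adjusted p = 8.02e-08).

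Among hexose transporters, 3 of 15 were lower and 1 was higher (HXT1, whose adjusted p was 0.0715 without S1, 0.122 without S2 and 0.23 without S6). HXT7, a high-affinity carrier, was at 7.13 and 6.33 CPM in I775E, 72.4 and 76.9 CPM with the YJM789 allele and 48.3 and 18.2 CPM with the S96 allele (log2 fold change -3.47, SE 0.33, adjusted p = 4.22e-09), and the near-identical HXT6 may share its reads. HXT4 was at 162 and 163, 1098 and 1005 and 692 and 313 CPM in the same order (log2 fold change -2.69, SE 0.27, adjusted p = 6.96e-09), and HXT2 at 251 and 285 against 1292 and 928 CPM (log2 fold change -2.05, SE 0.24, adjusted p = 2.28e-07). The main low-affinity carrier gene HXT3 did not pass (log2 fold change -0.22, SE 0.12, adjusted p = 0.228). Of 41 genes of the Snf1 complex and glucose signalling, 11 were lower, SNF1 among them, and 2 were higher, with 5 lower without S1, without S2 or without S6, and 4 were lower in I775E over S96. The 2 higher genes were SIP4 and NRG1. SIP4 had the larger difference (log2 fold change 3.69, adjusted p = 5.51e-06), between 3.19 and 4.07 without 1 of the 4 libraries. NRG1, for a repressor of glucose-repressed genes, was at 48.6 and 45.5 against 19.7 and 19.2 CPM (log2 fold change 1.27, SE 0.25, adjusted p = 0.000598). The adenylate cyclase gene CYR1 was at 74.4 and 68.9 against 123 and 136 CPM (log2 fold change -0.86, SE 0.15, adjusted p = 0.000122). Of 47 glucose-repressed genes for other carbon sources, 7 were lower (14.9%, against 6.73% of all genes) and 1 was higher, with 2 or 3 lower without S1, S5 or S6. In I775E over S96, 7 of this list were higher and 2 lower, against 7.28% and 4.41% of all genes, with a median log2 fold change of 0.13. The same 4.41% is the background for the 4 genes of the Snf1 list that were lower in I775E over S96. MDH2, the cytosolic malate dehydrogenase of gluconeogenesis, was at 29 and 23.0 against 82.3 and 61.1 CPM (log2 fold change -1.47, SE 0.20, adjusted p = 2.18e-06), and CIT2, the peroxisomal citrate synthase, at 224 and 137 against 52.2 and 66.7 CPM (log2 fold change 1.6, SE 0.21, adjusted p = 1.22e-06).

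In central metabolism the isozymes of a step gave different values. TDH1, the least abundant of the glyceraldehyde-3-phosphate dehydrogenase genes in growing cells, was at 1737 and 1139 CPM in I775E, 138 and 151 CPM with the YJM789 allele and 81.2 and 63.2 CPM with the S96 allele (log2 fold change 3.31, SE 0.17, adjusted p = 3.06e-15). TDH3 did not pass, with a log2 fold change of 0.25, SE 0.12, adjusted p = 0.183. ENO1 was at 4631 and 4506 against 2145 and 2235 CPM (log2 fold change 1.06, SE 0.11, adjusted p = 2.43e-08), and ENO2, which did not pass, at 23675 and 25572 against 25118 and 24136 CPM. ADH5, an alcohol dehydrogenase, had a log2 fold change of 1.55, SE 0.16, adjusted p = 1.06e-08, and GPD1, which makes glycerol-3-phosphate, of -1.37, SE 0.13, adjusted p = 5.37e-09. In all, 6 of 31 glycolytic and fermentative genes were higher (19.4%, against 7.42% of all genes) and 4 were lower (12.9%, against 6.73%). TDH and ENO isozymes are close in sequence, so part of their reads may be shared.

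Some respiratory genes were lower in I775E. Of 46 genes of the respiratory chain and ATP synthase, 13 were lower (28.3%, against 6.73% of all genes) and 1 was higher, with 7 lower without S5 and 10 without each of the others. In I775E over S96, 3 of the 46 were lower and 1 was higher, against 4.41% and 7.28% of all genes. HAP4, the activating subunit of the factor that drives respiratory genes, was at 37.0 and 30.5 against 121 and 136 CPM (log2 fold change -1.93, SE 0.20, adjusted p = 2.01e-08), and SDH1, of succinate dehydrogenase, at 86.0 and 79.9 against 198 and 226 CPM (log2 fold change -1.35, SE 0.18, adjusted p = 2.68e-06). NDE1, the external NADH dehydrogenase, had a log2 fold change of -0.87, SE 0.12, adjusted p = 4.84e-06. In the tricarboxylic acid cycle list 8 of 23 were lower and 2 were higher, with 5 lower without S2, 4 without S5 and 3 without S6, and 3 in I775E over S96, and the aconitase gene ACO1 was at 427 and 431 against 657 and 853 CPM (log2 fold change -0.82, SE 0.13, adjusted p = 2.29e-05). Of 38 lipid synthesis genes, 11 were lower and 1 was higher, with 7 lower without S5. These included FAS1 and FAS2, the subunits of fatty acid synthase (log2 fold changes -1.14 and -0.89), and ACC1, acetyl-CoA carboxylase, at 546 and 695 against 1440.1 and 1257 CPM (log2 fold change -1.12, SE 0.14, adjusted p = 7.28e-07).

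Arginine and lysine synthesis ran the other way. Of 26 genes 15 were higher and none was lower, with a median log2 fold change of 0.72 and 11 to 14 higher without any 1 of the 4 libraries. ARG3, ornithine carbamoyltransferase, was at 76.2 and 71.2 against 9.27 and 7.92 CPM (log2 fold change 3.09, SE 0.33, adjusted p = 2.47e-08). CPA1, which encodes a carbamoyl phosphate synthetase protein of the same pathway, was at 638 and 675 against 235 and 184 CPM (log2 fold change 1.65, SE 0.14, adjusted p = 3.22e-10). LYS20, homocitrate synthase, was at 324 and 321 against 154 and 157 CPM (log2 fold change 1.05, SE 0.13, adjusted p = 4.07e-07). The arginine permease gene CAN1 did not pass (log2 fold change -0.01, SE 0.13, adjusted p = 0.976). Among 60 other amino acid genes 15 were higher and 9 were lower, with LEU4 at 1.22, the transporter gene BAP3 at 1.16 and the glutamine synthetase gene GLN1 at -1.02, and the transcript of the regulator GCN4 did not pass (log2 fold change 0.20, SE 0.13, adjusted p = 0.306).

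**Figure D4:**
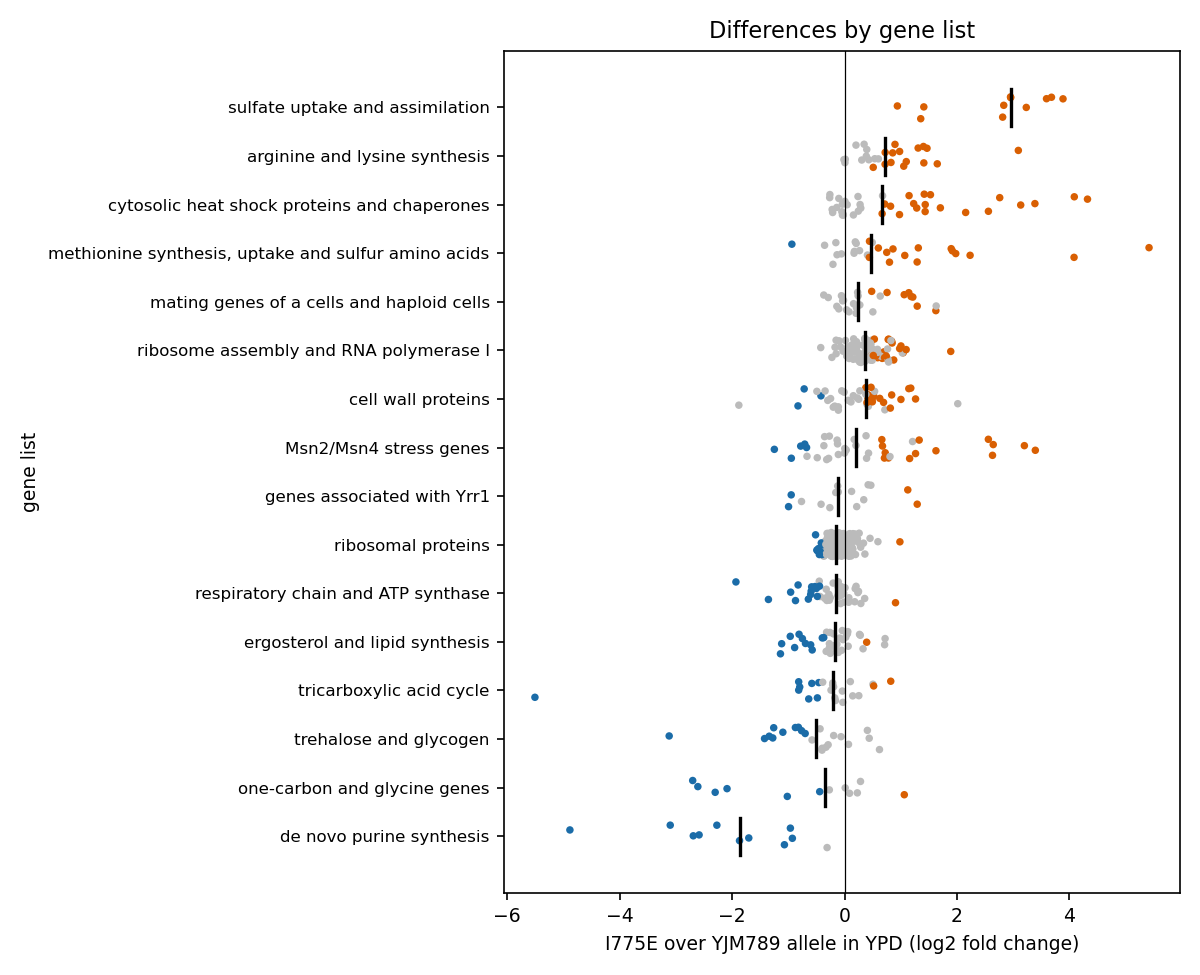
Log2 fold changes of I775E over the YJM789 allele in YPD for the members of 16 gene lists. Each point is a gene (orange higher, blue lower, grey not passed), and each black bar is the median of the list, from 2.95 for sulfate assimilation to -1.87 for de novo purine synthesis.

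Smaller groups moved in part. Of 43 cell wall genes 17 were higher and 3 were lower, with 9 higher without S2 and 10 without S6. SLT2, the kinase of the cell wall integrity pathway, was at 175 and 165 against 82.3 and 67.8 CPM (log2 fold change 1.18, SE 0.17, adjusted p = 6.19e-06), and the cell wall transglycosylase gene CRH1 had a log2 fold change of 0.84, SE 0.11, adjusted p = 2.58e-06. Of 27 mating genes 8 were higher and none was lower, with 5 higher without S1, 5 without S2 and 3 without S5. The a-agglutinin genes AGA2 and AGA1 were at 565 and 422 against 176 and 144 CPM and 458 and 321 against 182 and 170.2 CPM (log2 fold changes 1.62 and 1.14), while the a-cell receptor gene STE2 lay at 1790.1 and 1765 against 1867 and 1731 CPM and did not pass, in MATa cells of both alleles. Of 29 phosphate genes 8 were higher and 1 was lower, with 5 higher without S1 or S6. PHO5, a secreted acid phosphatase, was at 1499 and 2003 against 755 and 686 CPM (log2 fold change 1.28, SE 0.16, adjusted p = 4.3e-07), whereas PHO89, a sodium-phosphate cotransporter, fell from 344 and 288 CPM to 33 and 59.4 CPM (log2 fold change -2.76, SE 0.20, adjusted p = 1.14e-11). The vitamin B6 gene SNO1 and the thiamine transporter gene THI7 had log2 fold changes of 2.61 and 2.13 (adjusted p = 3.71e-06 and 2.36e-11). Of 46 antioxidant genes 8 were higher and none was lower, with 4 higher without S2 and 5 without S5. The peroxiredoxin gene AHP1 was at 1169 and 1153 against 578 and 573 CPM (log2 fold change 1.01, SE 0.13, adjusted p = 8.44e-07), and the methionine sulfoxide reductase gene MXR1 at 111 and 75.2 against 32.5 and 23.2 CPM (log2 fold change 1.74, SE 0.27, adjusted p = 1.85e-05).

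Genes of the ribosome gave small differences that leaned on single libraries. Of 107 genes of ribosome assembly and RNA polymerase I, 21 were higher and none was lower, with a median log2 fold change of 0.37, but 14, 7, 6 and 6 were called without S1, S2, S5 and S6. None of the 107 was called in I775E over the S96 allele (11.7% of all genes), and 4 were lower in the YJM789 allele than in S96 (0.156% of all genes). Of 135 ribosomal protein genes, 13 were lower (9.63%, against 6.73% of all genes) and 1 was higher, with 2, 2, 0 and 7 lower without S1, S2, S5 and S6, and the median log2 fold change was -0.15. In I775E over S96, 30 of the 135 were lower and 1 was higher, against 4.41% and 7.28% of all genes.

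The difference between I775E and the YJM789 allele was then compared with the same difference in 4NQO, within 1 model, to see which parts of it belonged to YPD. Per the study's methods each culture was divided between media, but no label says which libraries came from the same culture, so the model treats libraries of a divided culture as independent. The difference changed between the media at 370 genes (6.42%), of which 213 moved down (3.69%) and 157 moved up (2.72%) in 4NQO relative to YPD. Without S2, S5, S6, S7 and S12 in turn these calls were 227, 225, 228, 202 and 236. In 4NQO itself 234 genes were called between the alleles (4.06%), 117 higher (2.03%) and 117 lower (2.03%) in I775E. Of the 370 changes, 366 were opposite in sign to the difference in YPD. Genes picked for a call in YPD lean that way by the choice, since the change subtracts the same YPD values, so the counts of list members are given beside those of all genes picked alike. Of all 388 genes lower in YPD, 126 changed between the media and 33 were lower in 4NQO too. All 10 of the purine genes that were lower in YPD changed, and none was called in 4NQO, where the median log2 fold change of the list was 0.02. ADE17 was at 219.5 and 179 CPM in I775E and 224 and 229 CPM with the YJM789 allele in 4NQO, so the YJM789-allele level came down to that of I775E (4NQO minus YPD by 4.70 on the log2 scale, SE 0.24, adjusted p = 1.57e-14). SHM2 was at 748 and 661 against 596 and 621 CPM in 4NQO (4NQO minus YPD by 2.91 on the log2 scale, SE 0.21, adjusted p = 3.03e-11).

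Heat shock genes lost their difference from the other side. SSA4 was at 571 and 519 CPM in I775E and 439 and 469 CPM with the YJM789 allele in 4NQO, where the YJM789-allele level had reached nearly that of I775E (4NQO minus YPD by -3.82 on the log2 scale, SE 0.26, adjusted p = 1.48e-11). HSP26 was at 499 and 423 against 709 and 556 CPM (4NQO minus YPD by -4.78 on the log2 scale, SE 0.33, adjusted p = 1.55e-11). Of the 19 heat shock genes higher in YPD, 14 changed between the media, and 1 was higher in 4NQO, while of all 428 genes higher in YPD 165 changed and 60 were higher in 4NQO. Sulfate genes kept part of theirs: 10 of the 11 changed between the media, and 6 were still higher in 4NQO, with a median log2 fold change of 0.86. MET17 was at 1299.6 and 972 against 619 and 576 CPM in 4NQO, where its log2 fold change was 0.93 (4NQO minus YPD by -2.96 on the log2 scale, SE 0.20, adjusted p = 1.18e-11).

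Other differences were seen in 4NQO as well, and the test of the change between the media did not pass for them. IMD2 was at 515 and 592 CPM in I775E against 131 and 117 CPM with the YJM789 allele in 4NQO (log2 fold change 2.16 there, 4NQO minus YPD by 0.08 on the log2 scale, SE 0.21, adjusted p = 0.886). PHO89 was at 29.3 and 31.4 against 219 and 148 CPM (log2 fold change -2.60 there, 4NQO minus YPD by 0.16 on the log2 scale, SE 0.32, adjusted p = 0.835), and HXT7 at 31.8 and 27.1 against 185 and 161 CPM (log2 fold change -2.54 there, 4NQO minus YPD by 0.92 on the log2 scale, SE 0.45, adjusted p = 0.251). None of the 8 mating genes that were higher in YPD passed the test of the change, and 5 of them were higher in 4NQO. YRR1 was at 62.6 and 53.7 against 103 and 103 CPM in 4NQO (4NQO minus YPD by 0.13 on the log2 scale, SE 0.26, adjusted p = 0.84).

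In glycerol the difference between the alleles changed at 1885 genes relative to YPD (32.7%), and 2488 genes were called between the alleles there (43.1%). The sulfate list had a median log2 fold change of 0.57 in glycerol and the purine list of -0.11, and all 10 purine genes and 9 of the 11 sulfate genes changed from YPD. The heat shock list turned direction there, with a median of -0.57, 6 members higher and 19 lower, and 18 of the 19 genes higher in YPD changed. Of all 428 genes higher in YPD, 272 changed in glycerol, and of all 388 lower ones 224 did. Like the list members, these genes were picked for a call in YPD, and the change subtracts the same YPD values. Of all genes, 17.1% were higher and 26.1% lower in glycerol, with a median of -0.10. The glycerol libraries of I775E also lacked SNF1, a kinase needed for growth on glycerol, and carbon source, the 10 h of growth and this loss cannot be told apart.

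**Figure D5:**
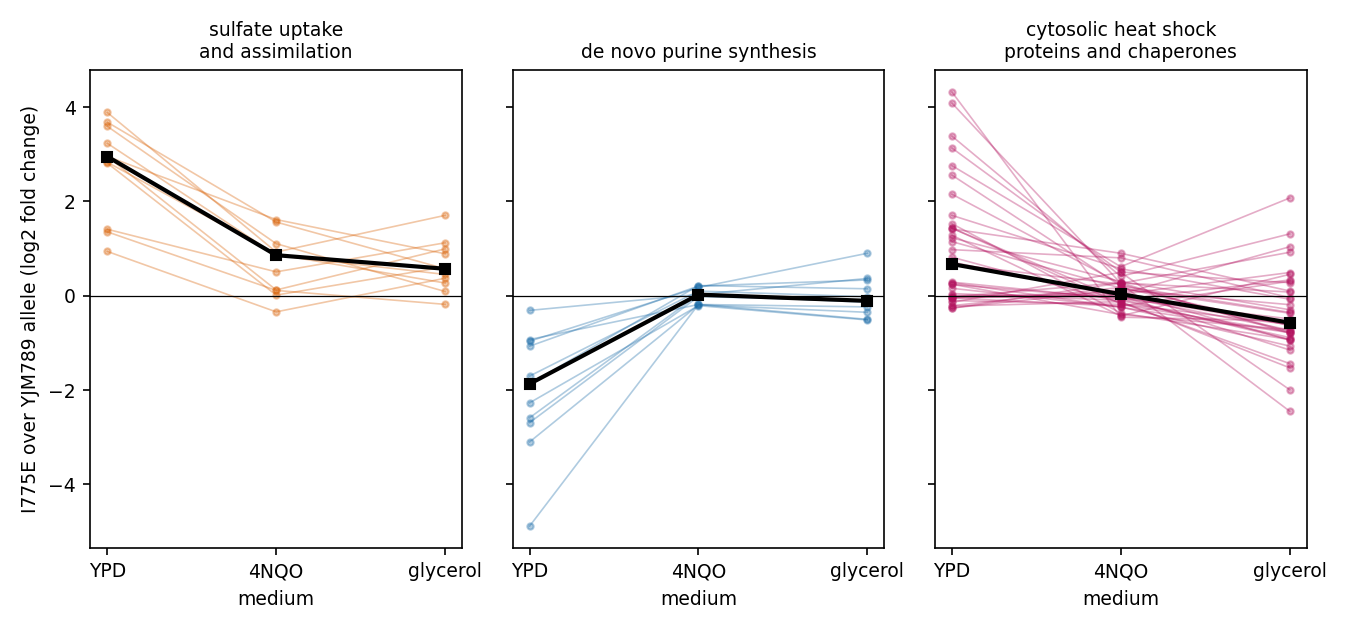
Log2 fold change of I775E over the YJM789 allele in YPD, in YPD with 4NQO and in glycerol for the members of 3 gene lists, each thin line a gene and the black line the median of the list. In YPD the medians were 2.95, -1.87 and 0.67, in 4NQO they were 0.86, 0.02 and 0.03, and in glycerol they were 0.57, -0.11 and -0.57, in the order sulfate, purine and heat shock.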

How the data were processed

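Unstranded TruSeq libraries were sequenced on a MiSeq. After base calling with CASAVA 1.7 the authors removed ribosomal and transfer RNA reads, and TopHat 2.0.12 aligned what was left. Rsubread then gave counts for the genes of R64-1-1. The deposited counts are whole numbers for 6713 loci, without normalization. The deposited FPKM values, rounded by the authors, were not tested, and that table gave names and coordinates. The authors' table of their own comparisons was not used. Reads of overlapping genes, or of either strand, cannot be told apart.

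edgeR 4.0.16 under R 4.3.3 was used for the tests. The filter filterByExpr kept 5766 genes, TMM scaled the totals, and 1 quasi-likelihood model covered the 18 libraries with a coefficient for each condition (common dispersion 0.0122). Contrasts were tested two-sided (glmQLFTest), and p-values were adjusted over all genes tested (Benjamini-Hochberg). On simulated data of this depth, the test of I775E over the YJM789 allele found 26.9% of 1.5-fold, 74.6% of 2-fold and 97% of 4-fold changes, with 8 false calls among 5745 genes. DESeq2 1.42.0, limma 3.58.1 (voom), other scalings, filters, subsets of libraries and leaving out single libraries were tried as alternatives. Counting precision covers sequencing only.

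The comparison, the 34 gene lists and the rule for named genes were chosen with earlier results of these data known. Named were the genes associated with Yrr1, the 15 largest positive and 15 largest negative differences among called genes that averaged 20 CPM or more and whose groups did not overlap, called and abundant uncalled members of each list, and genes absent from all I775E libraries. Sequences and promoters were read from the R64 genome of RefSeq, whose locus tags matched 6022 of the 6713 loci.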

Additional observations from a re-analysis of the deposited data

Results flagged for a closer look

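Of the 30 genes with the largest differences between I775E and the YJM789 allele in YPD, 25 had another difference in 4NQO by the test of the change between the media (edgeR quasi-likelihood, adjusted over all genes, largest adjusted p = 0.002 among the 25), 5 did not, and each change below is the log2 fold change in 4NQO minus that in YPD. Of all genes 370 changed (6.42%), and of the 816 called in YPD 165 of 428 higher and 126 of 388 lower ones did. Genes chosen for a large difference in YPD lean toward a change of opposite sign, because the change subtracts the same YPD values, and 366 of the 370 were of that sign. Of the sulfur genes, STR3 by -4.62, MHT1 by -3.59, MET17 by -2.96, MET14 by -2.12, MET3 by -2.49, MET10 by -2.37 and SEO1 by -3.0 changed, SEO1 being a permease gene. For STR3 the change was -3.68 without S1, the library with a count of 0. Of the stress and chaperone genes, HSP26 by -4.78, HSP12 by -4.76, SSA4 by -3.82, BTN2 by -2.98 and HSP42 by -2.63 changed. The other positive differences that changed were those of ICY2 by -2.40, TDH1 by -2.65 and ARG3 by -2.11. Of the purine genes, ADE17 by 4.70, ADE2 by 2.91, ADE1 by 2.67, ADE13 by 2.61 and ADE4 by 2.06 changed. Of the one-carbon and glycine genes, SHM2 by 2.91, MTD1 by 2.44, GCV1 by 2.57 and GCV2 by 2.26 changed, and the glycogen synthase gene GSY1 by 2.87.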

How the results depend on the processing

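No paired analysis was possible because the library numbers S1 to S18 are all different and no label says which libraries came from 1 culture. The study's methods say that cultures were divided between media, and the tests of the change between media do not use that. The 816 calls between I775E and the YJM789 allele in YPD lay between 732 (DESeq2) and 1017 (the 4 libraries alone) under the other scalings, filters, tests and subsets, between 473 and 521 without 1 library, and were 297 with a log2 fold change of at least 1. For 4NQO minus YPD the 370 calls were between 202 and 340 without 1 library, and for glycerol minus YPD the 1885 calls between 1555 and 1788. A side left with 1 library takes its spread from the other conditions, and such fits can call fewer genes by their construction. Of 214 named genes called with all libraries, 41 to 54 lost the call without 1 library and at most 14 under any other alternative, and none changed direction. Those 25 of the largest differences that changed between YPD and 4NQO kept the call in every alternative that gave them an adjusted p. Depth and 2 libraries a side limit the finding of small differences. On simulated data, with fewer changed genes than were called here and none of the lowest levels, 26.9% of 1.5-fold changes were called.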
